A study of Mus musculus with 10 samples.

Results

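Immediate early genes are genes whose transcripts appear within minutes of a stimulus without new protein synthesis. The 10 analysed here, Fos, Fosb, Jun, Junb, Egr1, Egr2, Egr3, Nr4a1, Ier2 and Myc, were chosen by name as the classical members of this class, and all 10 were present among the 23337 genes of the right atrial RNA-seq table. Of these, 8 passed the expression filter and were tested, whereas Fosb and Egr3 had too few reads. Myc, Egr2, Fos and Junb were higher in the mice labelled Tbx5 mutant, by 3.81-fold, 2.44-fold, 2.25-fold and 1.58-fold, and no member was lower. Jun, Egr1, Ier2 and Nr4a1 did not pass the thresholds.

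In resting tissue these genes are poised, with serum response factor, its ternary complex partners and CREB already at their promoters, and kinases such as ERK, p38 and the calcium-dependent kinases switch them on. Their products are mostly transcription factors that set off later gene programmes, and negative feedback by phosphatases and RNA-decay proteins shortens the burst. In the heart they are known to respond to stretch, catecholamines and ischaemia.

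The study asked how the T-box transcription factor Tbx5 controls atrial gene expression, and these libraries came from the right atria of 4 mice labelled control and 6 labelled Tbx5 mutant. Labels give the genotypes as Control and as R26Cre driven TBX5 removal, the strain as mix, both sexes in each group and an age of 8 to 10 weeks, while the protocol text gives 6 to 8 weeks. By that text, tamoxifen at 0.167 mg per day for 3 days activated a Cre recombinase that removes exon 3 of Tbx5, and the atria were collected 1 week later. In other experiments of the study, controls were R26CreERt2 mice and mutants Tbx5 fl/fl;R26CreERt2 mice, and the labels do not say whether the right atrial controls carried Cre or received tamoxifen. The R26 promoter is active in every cell type, so removal was not restricted to cardiomyocytes, and each library came from the tissue of 1 mouse.

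Total counts ranged from 5703775 to 7095141 per library. The library of mutant M3 stood apart, with 38.9% of its counts on the ribosomal gene Rn45s and 3484550 counts outside it, against 0.268% to 1.49% on Rn45s in the other 9 libraries. Tbx5 itself, counted over the whole gene, was higher and not lower in the mice labelled Tbx5 mutant. It ranged from 184 to 224 CPM (counts scaled to library size) in the mice labelled control and from 275 to 475 in those labelled Tbx5 mutant (log2 fold change 0.94, edgeR quasi-likelihood test with Benjamini-Hochberg adjustment, adjusted p = 0.000495). A count over the whole gene does not show whether exon 3 was lost, and each direction given here is relative to the labels. In the study's model, Ryr2 transcription falls on loss of Tbx5. Ryr2 ranged here from 4743 to 6029 CPM in the mice labelled control and from 1147 to 2318 in those labelled mutant. Whether the labels are right was not tested. Xist, the RNA that silences 1 X chromosome in female cells, gave 10149 and 7850 reads in control M1 and M2, labelled as males, but 5 and 14 reads in F1 and F2, labelled as females, the reverse of their labels. The labelled sex of the mutant mice matched their Xist and Ddx3y reads. A fit of 1 labelled sex alone therefore sets controls against mutants of the opposite sex by Xist. In such a fit, effects of group and of sex cannot be told apart. Cardiomyocyte markers were abundant in every library, as described with the other cell types.

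Promoters were examined because Fos, Junb and Egr2 were higher together and have entries in the RefSeq promoter table of GRCm38.p6. That table holds 250 bases before and 50 bases after each start, and it had entries for 6 members: Fos, Fosb, Jun, Junb, Egr2 and Nr4a1. The names without an entry are Egr1, Egr3, Ier2 and Myc. The windows of the 3 called members with an entry are printed with that of Nr4a1, a member that was not called. They are Fos at chr12:85473640-85473939 on the forward strand, Junb at chr8:84978699-84978998 on the reverse strand, Egr2 at chr10:67537619-67537918 on the forward strand and Nr4a1 at chr15:101266596-101266895 on the forward strand. Capitals mark the TGACG core of the cyclic AMP response element, bound by CREB, on either strand (CGTCA when read from the other strand), and the CArG box, bound by serum response factor. All are written 5′ to 3′ along the strand of the gene.
Fos: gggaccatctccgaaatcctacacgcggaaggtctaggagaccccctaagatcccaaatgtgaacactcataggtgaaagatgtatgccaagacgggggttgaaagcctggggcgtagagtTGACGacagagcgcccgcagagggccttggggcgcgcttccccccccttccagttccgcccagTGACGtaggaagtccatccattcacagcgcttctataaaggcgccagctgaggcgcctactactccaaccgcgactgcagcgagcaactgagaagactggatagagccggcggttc
Junb: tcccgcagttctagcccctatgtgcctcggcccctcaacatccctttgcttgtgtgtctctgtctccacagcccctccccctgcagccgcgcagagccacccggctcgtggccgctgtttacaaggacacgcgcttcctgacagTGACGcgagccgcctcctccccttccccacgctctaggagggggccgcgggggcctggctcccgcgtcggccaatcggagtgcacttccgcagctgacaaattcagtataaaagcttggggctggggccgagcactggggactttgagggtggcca
Egr2: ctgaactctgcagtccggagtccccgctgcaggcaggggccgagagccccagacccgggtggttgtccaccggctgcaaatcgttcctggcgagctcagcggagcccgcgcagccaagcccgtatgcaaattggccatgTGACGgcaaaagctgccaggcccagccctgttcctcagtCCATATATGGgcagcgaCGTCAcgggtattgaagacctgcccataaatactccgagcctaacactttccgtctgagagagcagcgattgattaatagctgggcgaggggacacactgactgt
Nr4a1: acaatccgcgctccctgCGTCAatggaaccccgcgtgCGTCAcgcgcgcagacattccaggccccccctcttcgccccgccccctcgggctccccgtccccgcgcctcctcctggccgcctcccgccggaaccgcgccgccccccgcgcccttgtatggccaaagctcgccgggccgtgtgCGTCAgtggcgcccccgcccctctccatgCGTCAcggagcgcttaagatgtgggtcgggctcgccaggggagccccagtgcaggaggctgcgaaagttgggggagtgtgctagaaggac

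The Fos window held the TGACG core 2 times, starting 129 and 66 bases before the transcription start. Junb held it 1 time, 106 bases before the start. Egr2 has 5 listed starts, and the printed window held a CArG box 72 bases before its start, flanked by TGACG cores at 111 and 55 bases before it. The same sites lie in the windows of the 2 neighbouring starts, another window held a CArG box alone, and the window of the most upstream start held neither. Nr4a1, which was not called, held the core 4 times, and Fosb held it 1 time. The core was therefore present in 5 of the 6 members with an entry, among called and uncalled members alike, and in 20.8% of all 32851 promoter windows. The CArG box was present in 1.63% of all windows.

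Other motifs searched on both strands were the full cyclic AMP response element TGACGTCA, which contains the core (1.79% of windows), the AP-1 site TGANTCA (7.81%), the EGR site GCGNGGGCG (5.55%), the NR4A site AAAGGTCA (1.51%), the E-box CACGTG bound by Myc and Max (7.15%) and the T-box motif AGGTGT (13.7%). Among the members, the EGR site was found in the Fosb and Nr4a1 windows and the E-box in the window of the most upstream Egr2 start. The window of Jun held none of the motifs searched. Such matches describe letters within these windows and say nothing on binding, and sites outside the windows were not searched.

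Fos pairs with Jun proteins through a leucine zipper to form AP-1, a dimer that binds DNA and activates many stimulus-response genes. Fos (ENSMUSG00000021250.13, GRCm38 chromosome 12 from 85473890 to 85477273) measured 4.57, 3.81, 4.08 and 7.31 CPM in control M1, M2, F1 and F2. In the 6 mice labelled mutant the lowest value was 6.51, the median 10.6 and the highest 19.4 CPM. Of the mutant mice, 5 lay above every control, and the groups overlapped through mutant M1, which lay below control F2. The log2 fold change of Fos was 1.17 (SE 0.29, 95% interval 0.54 to 1.80, adjusted p = 0.0088), and a two-sided exact permutation test of mean log2 CPM over all 210 assignments of the mice gave p = 0.0143. Fos was not called in the mice labelled male (log2 fold change 1.56, edgeR adjusted p = 0.0557) or female (0.81, adjusted p = 0.0731) alone, nor with a block for the replicate number and the length trend removed (0.95, adjusted p = 0.0604). In whole tissue, a change in RNA per cell and a change in the number of cells of a type cannot be told apart.

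**Figure D1:**
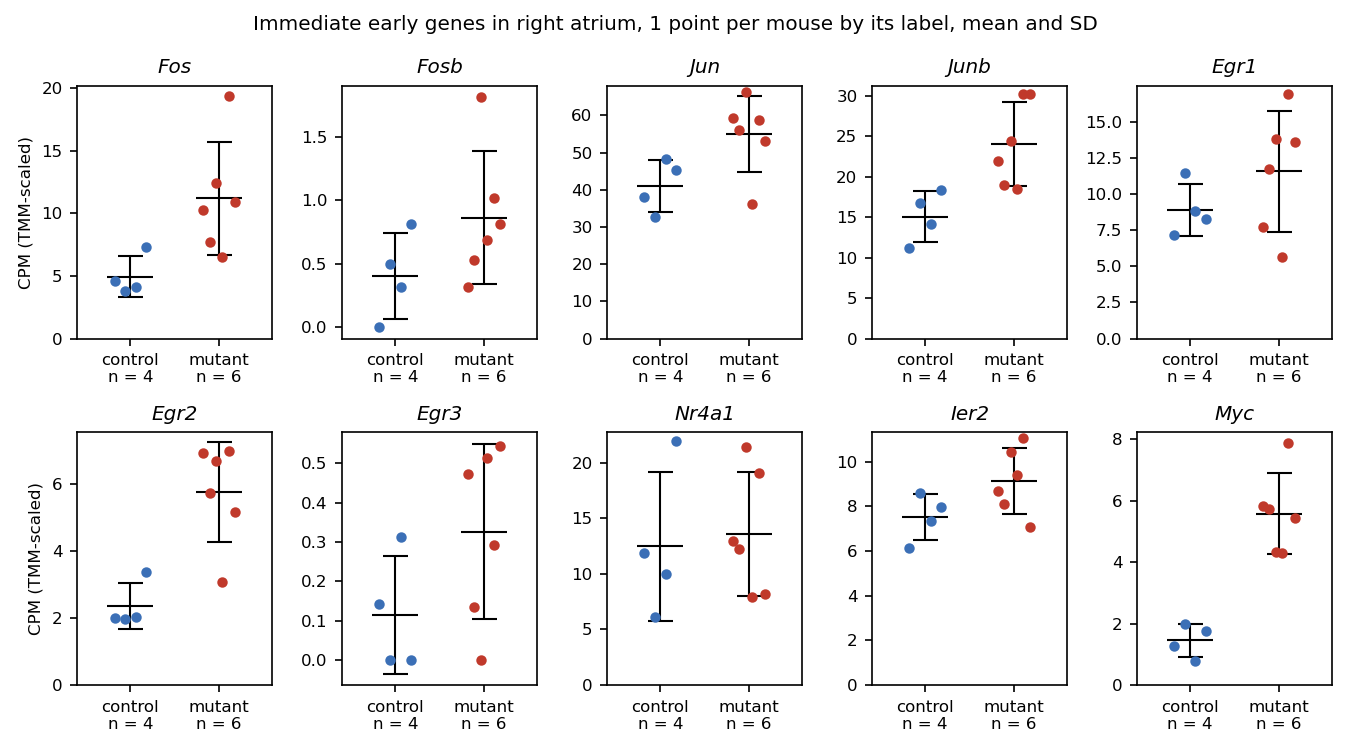
CPM of each member (vertical axes, linear, scaled separately per gene) in the 4 mice labelled control (blue) and the 6 labelled Tbx5 mutant (red), 1 point per mouse, with the group mean as a long bar and 1 SD as whiskers. The groups were separate for Junb and Myc, nearly so for Fos and Egr2, and overlapped broadly for Nr4a1, where control F2 at 21.9 CPM was the highest mouse.

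Fosb encodes another Fos-family partner for Jun proteins. It had 0, 3, 2 and 6 reads in control M1, M2, F1 and F2, and 2 to 13 reads in the mice labelled mutant, the highest being mutant F3. Mean levels were 0.406 ± 0.340 CPM (SD, n = 4) and 0.864 ± 0.523 CPM (SD, n = 6), with overlapping groups (two-sided exact permutation test, p = 0.1). A fold change fitted without the expression filter was 1.07 on the log2 scale (edgeR, adjusted p = 0.243), so a difference of Fosb was not detectable at this depth.

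Jun, the founding member of its family and a target of the JNK kinases, measured 38.0, 32.6, 48.1 and 45.2 CPM in control M1, M2, F1 and F2. Among the mutant mice its lowest value was 36.2, its median 57.4 and its highest 66.2 CPM. Mutant M1 lay within the control range and the other 5 lay above every control. The log2 fold change of Jun was 0.42 (SE 0.15, 95% interval 0.10 to 0.75, adjusted p = 0.0487), under the fold threshold of 1.5, and the exact permutation test gave p = 0.0619. Its adjusted p was over 0.05 in 8 of the 10 fits that left out 1 mouse, reaching 0.137 without control M2, and was 0.0984 with the replicate number as a block.

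Junb, an AP-1 partner that can restrain the activity of Jun, measured 11.1, 16.7, 14.1 and 18.4 CPM in control M1, M2, F1 and F2. The mutant mice had 18.5, 23.2 and 30.3 CPM as lowest, median and highest values. The groups of Junb did not overlap, although mutant M1 lay just above control F2. Its log2 fold change was 0.66 (SE 0.18, 95% interval 0.28 to 1.04, adjusted p = 0.0118), with an exact permutation p = 0.00952. Junb fell under the fold threshold without control M1 (log2 fold change 0.55, adjusted p = 0.0404), with the block (0.57) and after removal of the trend on transcript length (0.52), which ended its call. In the mice labelled male or female alone it was not called either (edgeR adjusted p = 0.0584 and 0.114).

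Egr1, Egr2 and Egr3 are zinc finger factors that share a GC-rich site and the co-repressors Nab1 and Nab2. Egr1, the member best known from vascular and cardiac stress, measured 7.14, 11.4, 8.78 and 8.26 CPM in control M1, M2, F1 and F2. In the mice labelled mutant its lowest value was 5.66, its median 12.7 and its highest 16.9 CPM. Mutant mice lay on both sides of the controls, 4 above every control and 1 below every control. The log2 fold change of Egr1 was 0.38 (SE 0.26, 95% interval -0.17 to 0.93, adjusted p = 0.273; exact permutation p = 0.357), an interval that includes both no change and a rise of over 1.5-fold.

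Egr2 is best known from hindbrain patterning and Schwann cells (ENSMUSG00000037868.15, GRCm38 chromosome 10 from 67535475 to 67542188). It measured 2.00, 1.99, 2.04 and 3.38 CPM in control M1, M2, F1 and F2, which correspond to 12 to 25 reads. In the mice labelled mutant the lowest, median and highest values were 3.09, 6.21 and 6.99 CPM. Control F2 stood above the other controls, and mutant M1 was the single mutant mouse below it. The log2 fold change of Egr2 was 1.29 (SE 0.26, 95% interval 0.73 to 1.85, adjusted p = 0.00239; exact permutation p = 0.00952). It was not called in the mice labelled male alone (1.35, edgeR adjusted p = 0.0705).

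Egr3 was close to the limit of detection, with 3 reads in total over the 4 mice labelled control and 11 over the 6 labelled mutant. No library had more than 3 reads of Egr3, so no fold change is given (exact permutation p = 0.19). The 3 Egr genes therefore gave 1 call, 1 value within the spread of the mice and 1 gene too low to test.

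Nr4a1, an orphan nuclear receptor induced by calcium and cyclic AMP signals, was the most variable tested member among the control mice. It measured 11.9, 6.12, 10.0 and 21.9 CPM in control M1, M2, F1 and F2, a coefficient of variation of 53.9%. Its lowest, median and highest values were 7.89, 12.6 and 21.5 CPM among the mutant mice. Every mutant mouse lay within the range of the controls, and the log2 fold change was 0.14 (SE 0.33, 95% interval -0.57 to 0.85, adjusted p = 0.776; exact permutation p = 0.676). Its sign depended on single mice, with -0.07 without control M2, -0.03 without mutant F3 and 0.57 without control F2.

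Ier2, a small nuclear protein, was the least variable tested member, with coefficients of variation of 14.0% and 16.2% in the mice labelled control and mutant. It measured 6.14, 8.60, 7.37 and 7.99 CPM in control M1, M2, F1 and F2, and 7.08, 9.05 and 11.1 CPM as the lowest, median and highest values of the mutant mice. Of the mutant mice, 4 lay above every control. The log2 fold change of Ier2 was 0.29 (SE 0.16, 95% interval -0.04 to 0.63, adjusted p = 0.166; exact permutation p = 0.1).

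Myc is a basic helix-loop-helix factor that drives growth, ribosome production and entry into the cell cycle (ENSMUSG00000022346.15, GRCm38 chromosome 15 from 61985391 to 61990374). It measured 1.29, 1.99, 0.784 and 1.76 CPM in control M1, M2, F1 and F2, from 5 to 13 reads. In the mice labelled mutant it had 20 to 54 reads, with 4.29, 5.59 and 7.86 CPM as the lowest, median and highest values. The groups of Myc did not overlap. Its log2 fold change was 1.93 (SE 0.27, 95% interval 1.34 to 2.52, adjusted p = 0.000175), and the exact permutation p = 0.00476 is the smallest that 4 mice against 6 allow. Myc remained past the thresholds in each fit tried that tested it, including those of either labelled sex alone, where group and sex by Xist go together.

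**Figure D2:**
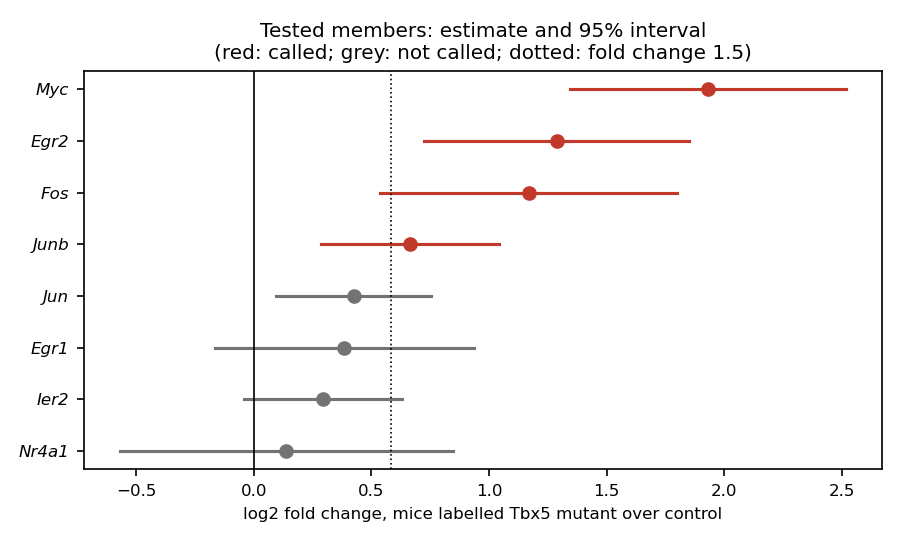
Log2 fold change of the 8 tested members (points, horizontal axis) with 95% intervals (lines), mice labelled Tbx5 mutant over control, called members in red and the others in grey. The points run from 0.14 for Nr4a1 to 1.93 for Myc, and the intervals of Egr1, Ier2 and Nr4a1 include 0.

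Over the whole list, 4 of the 8 tested members were called higher, whereas 8.5% of all 13084 tested genes were. None was called lower, against 7.16% of all tested genes. The members were chosen with earlier results of these data known, so these shares are description and not a test. The edgeR fit put 5 of the 8 under an adjusted p of 0.05, Jun being the fifth, as it did 4101 of all 13084 tested genes. The median log2 fold change of the 8 was 0.54, against -0.00495 over all tested genes. Each of the 8 estimates was above 0, as were 6469 of the 13084 over all tested genes. Shorter transcripts tended to higher log2 fold changes in general (Spearman -0.316 with transcript length). With that trend removed, the 8 estimates ran from 0.06 for Nr4a1 and 0.13 for Ier2 to 1.83 for Myc. In 2 members, Junb and Myc, every mouse labelled mutant lay above every control, as in 11.7% of all tested genes. In none did every mutant mouse lie below every control, as in 11.0% of all tested genes.

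Levels were compared between members only as CPM per kilobase of the longest transcript. In the mice labelled control, Jun was highest (12.9 ± 2.20, SD, n = 4), followed by Junb (8.34 ± 1.75), Ier2 (4.94 ± 0.690), Nr4a1 (4.89 ± 2.64) and Fos (2.34 ± 0.764). Egr1 (1.98 ± 0.404), Egr2 (0.793 ± 0.232), Myc (0.622 ± 0.228), Fosb (0.107 ± 0.0899) and Egr3 (0.0290 ± 0.0378) followed. Neighbours that differed by less than the larger of their SDs were Ier2 and Nr4a1, Nr4a1 and Fos, Fos and Egr1, Egr2 and Myc, and Fosb and Egr3.

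Among the mutant mice the order of levels per kilobase was the same down to Egr1, and Myc came before Egr2. Fos reached 5.31 ± 2.15 (SD, n = 6), close to Nr4a1 at 5.34 ± 2.19 and above Egr1 at 2.58 ± 0.931 by more than the larger SD. Myc, at 2.39 ± 0.560, came within its spread of Egr1 and Egr2, the latter at 1.95 ± 0.506. Jun (17.2 ± 3.19) and Junb (13.3 ± 2.90) again had the highest levels.

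Members deviated together in particular mice. Measured from the mean log2 CPM of its own group, in SD units and averaged over the 8 tested members, mutant M2 was highest at 1.16 and mutant M1 lowest at -1.33. Mutant M2 was the highest mouse of its group for Fos, Junb, Egr1, Egr2, Ier2 and Myc, and mutant M1 the lowest for each tested member other than Ier2. Among the controls, F2 averaged 0.861 and was the highest for Fos, Junb, Egr2 and Nr4a1, while M1 averaged -0.559. Mutant M3, the library with the high Rn45s share, averaged -0.09.

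**Figure D3:**
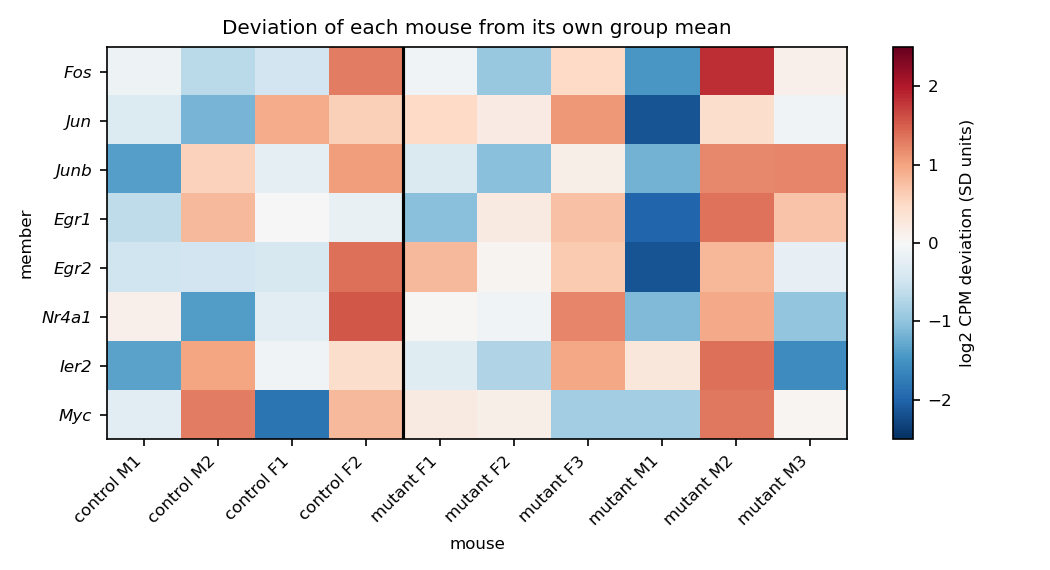
Deviation of each mouse (columns) from the mean log2 CPM of its own group for the 8 tested members (rows), red above and blue below the mean. The unit is the SD of each member over the 10 libraries, taken after the group means were removed. The black line separates the groups. Mutant M1 is blue for every member other than Ier2, whereas mutant M2 is red for each member.

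The calls were read without the mice that stood apart. Without mutant M2, the log2 fold changes were 1.81 for Myc, 1.23 for Egr2, 0.94 for Fos and 0.59 for Junb, and all 4 remained called. Without mutant M3 they were 1.94, 1.31, 1.18 and 0.60, and the same 4 genes were called. Without mutant M1 they were 1.98, 1.40, 1.27 and 0.72, and again the same 4 were called. In that fit Jun had 0.51 (edgeR adjusted p = 0.00566), still under the fold threshold, and Egr1 had 0.51 (adjusted p = 0.074).

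The genes whose deviations over the 10 libraries were most like the mean of the tested members, out of 13076 candidates, were Gpr137 (Pearson r = 0.983), Ly6c1 (0.949), F8a (0.946), Egfr (0.943) and Glyctk (0.932). These correlations describe libraries that share depth and tissue composition, and they were taken after the group means were removed. Gpr137 encodes a membrane protein of lysosomes, Ly6c1 a surface protein of endothelial cells and monocytes, and Egfr the receptor for epidermal growth factor. Group differences of these genes need not follow the members. Egfr differed by 0.02 on the log2 scale (adjusted p = 0.931) and Ly6c1 by 0.03 (adjusted p = 0.935), whereas Gpr137 differed by 0.55 (adjusted p = 0.00708).

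The wider class of rapidly induced genes was read from 4 lists with 86 genes, of which 79 were tested. Of these, 21 were called higher (26.6%, against 8.5% of all tested genes), 3 lower and 55 not called, with a median log2 fold change of 0.35. The lists were chosen with earlier results of these data known, so such shares are description and not a test. Among partners of AP-1 and related basic zipper factors, 3 of 8 tested genes were higher (37.5%) and none lower. Atf3, a stress-induced repressor, rose from 3.74 ± 1.61 CPM (SD, n = 4) to 35.5 ± 26.1 CPM (SD, n = 6), a log2 fold change of 3.25 (SE 0.51, adjusted p = 0.000385). Mutant M2 had 85.5 CPM of Atf3, and the other 5 mutant mice had 14.2 to 35.5. The small Maf proteins Maff and Mafk rose by 0.86 and 0.64 on the log2 scale (adjusted p = 0.00089 and 0.000385).

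In a list of other rapidly induced genes, mostly transcription factors, 3 of 24 were higher (12.5%, near the 8.5% of all tested genes) and none lower. The 3 were Ier3, by 1.21 on the log2 scale, Ier5 by 1.02 and Klf6 by 0.61. Klf9, which had the highest mean CPM of the list, had a log2 fold change of -0.25 (adjusted p = 0.198). The list of feedback genes holds phosphatases, inhibitors and RNA-decay proteins, and also kinases such as Pim1 and Sgk1. Feedback genes were higher in 7 of 25 (28.0%, against 8.5% of all tested genes) and lower in none. Dusp4 and Dusp6, phosphatases of MAP kinases, rose by 1.94 and 0.98 on the log2 scale (adjusted p = 0.000115 and 0.000159), the cytokine inhibitor Socs3 by 0.95 (adjusted p = 0.00142) and the antiproliferative gene Btg2 by 0.89 (adjusted p = 0.00383). Nfkbia, the inhibitor of NF-kB and the gene with the highest mean CPM of that list, had a log2 fold change of -0.00348 (adjusted p = 0.992).

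Effectors, which encode secreted and signalling proteins, were higher in 8 of 22 tested genes (36.4%, against 8.5% of all tested genes). In 3 they were lower (13.6%, against 7.16%). The matricellular gene Cyr61 rose from 18.9 ± 5.82 CPM (SD, n = 4) to 91.9 ± 31.5 CPM (SD, n = 6), by 2.28 on the log2 scale (adjusted p = 2.74e-05). Thbs1 and Ctgf, also matricellular, rose by 1.92 and 1.18, and the monocyte chemokine Ccl2 by 2.74, from 0.853 CPM. The 3 that were lower were Rgs2, a regulator of G protein signalling (log2 fold change -1.46), Homer1, a scaffold of calcium signalling (-1.19) and Tiparp, a mono-ADP-ribosyltransferase (-0.68). Homer1 and Tiparp were chosen after their values were seen, to complete the lower count, as was Rgs2.

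**Figure D4:**
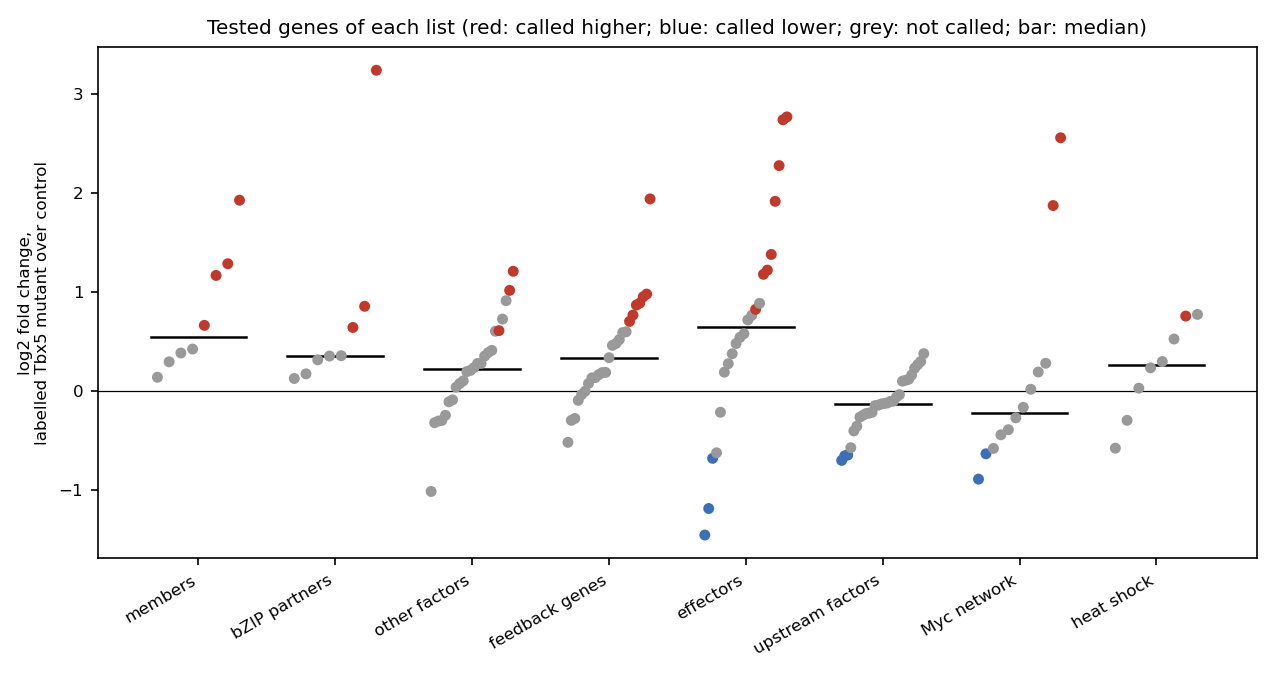
Log2 fold change (vertical axis, mice labelled Tbx5 mutant over control) of each tested gene in 8 lists, sorted within a list, red for genes called higher, blue for genes called lower, grey for genes not called, with a black bar at the median. The median of the members was 0.54, that of the effectors 0.65 and that of the upstream factors -0.13.

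The upstream factors that switch the members on, namely serum response factor and its partners, CREB and its co-activators, MEF2 and the MAP kinase cascade, were mostly not called. Of 28 tested, none was called higher and 3 were lower (10.7%, against 7.16% of all tested genes), with a median log2 fold change of -0.13. Mef2a and Mef2d, factors that bind several early promoters, had log2 fold changes of -0.70 and -0.66 (adjusted p = 0.000414 and 0.000203), and the kinase gene Rps6ka5 -0.65 (adjusted p = 0.001). Srf, with 99.6 ± 8.26 CPM (SD, n = 4) and 91.3 ± 7.08 CPM (SD, n = 6), had a log2 fold change of -0.13 (adjusted p = 0.282). RNA levels do not measure the activity of these proteins.

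Among the dimer partners and competitors of Myc, 2 of 12 tested genes were called higher and 2 lower (16.7% each, against 8.5% and 7.16% of all tested genes). Mycn, a close relative of Myc, rose from 1.08 ± 0.235 CPM (SD, n = 4) to 4.06 ± 0.964 CPM (SD, n = 6), by 1.88 on the log2 scale (adjusted p = 0.000267). Mxd3, a competitor of Myc for Max, rose by 2.56 (adjusted p = 0.00377) from 0.533 CPM. Max, the obligate partner of Myc, had a log2 fold change of -0.64 (adjusted p = 0.000224) and Mlxip of -0.89 (adjusted p = 0.00105). Mga, with the highest mean CPM of these, had -0.58 (adjusted p = 0.0195), under the fold threshold.

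Heat shock genes, which also rise within minutes of stress, were called higher in 1 of 8 (12.5%, near the 8.5% of all tested genes), with none lower. Hspb1 rose by 0.76 on the log2 scale (adjusted p = 0.0026), and Hspa8 had a log2 fold change of 0.30 (adjusted p = 0.258).

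Markers of several cell types also differed between the groups. The summed level of 8 cardiomyocyte markers ranged from 140021 to 192348 CPM in the mice labelled control and from 84862 to 157384 in those labelled mutant, with mutant M2 lowest, and 3 of the 8 were called lower and 2 higher. Ttn was the largest part of this sum in every library, at 63169 to 106625 and 27143 to 90195 CPM. Myh6 overlapped, at 20727 to 32508 and 21743 to 30988 CPM. Tnnt2 and Actc1 were higher in every mouse labelled mutant than in every control, and Myl7 and Ryr2 lower. The 7 fibroblast markers did not overlap between groups in their sum, at 3783 to 5009 and 6203 to 9429 CPM, with mutant M2 highest and 3 of 7 called higher. The collagen genes Col1a1, Col1a2 and Col3a1 separated the groups, with Col3a1 at 1072 to 1822 and 2962 to 4962 CPM. Dcn overlapped, at 1754 to 2074 and 1632 to 2142 CPM, and Pdgfra went the other way, at 177 to 233 and 135 to 193 CPM. Of the 7, 5 had a log2 fold change above 0, so the sum mostly follows collagen RNA. The sum of 7 leukocyte markers overlapped, at 299 to 494 and 475 to 729 CPM, with mutant M2 highest and 4 of the 5 tested called higher.

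The 4 proliferation markers, Mki67, Top2a, Ccnb1 and Cdk1, summed to 10.6 to 25.0 CPM in the controls and 67.3 to 234 CPM in the mice labelled mutant, with all 4 called higher and mutant M1 highest. Endothelial markers summed to 1768 to 2738 and 2693 to 3551 CPM, with 1 of 6 called higher, and smooth muscle markers to 187 to 242 and 248 to 594 CPM, with 1 of 4 called higher. In only 1 gene of each list, Vwf and Acta2, did every mouse labelled mutant lie above every control. Epicardial markers summed to 277 to 290 and 161 to 335 CPM, with no call. Neutrophil markers summed to 1.72 to 4.20 and 2.18 to 11.5 CPM, and adipocyte markers to 0.470 to 4.14 and 0 to 20.8 CPM, with mutant M2 highest for both.

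Of the erythroid markers, Hba-a1 and Hba-a2 had 0 reads in every library. Alas2, the first enzyme of haem synthesis in red cells, ranged from 10.1 to 14.5 and from 9.20 to 43.1 CPM, with mutant M2 highest, and was called higher (log2 fold change 1.05, adjusted p = 0.0285). The part of these cell types in the levels of the members was not tested. Mutant M1, the lowest mouse of its group in 7 of the 8 tested members, had the highest sum of proliferation markers. Mutant M2, the highest in 6, had the highest sums of fibroblast and leukocyte markers.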

How the data were processed

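Right atrial RNA-seq libraries from 4 mice labelled control and 6 labelled Tbx5 mutant were analysed. The authors deposited 1 table with raw counts per gene and a normalized signal, each count divided by 1 DESeq2 size factor per library. Per the file headers, the other deposited columns hold the authors' own comparison (log2 fold change, Wald score, p-value and ratio) and were not used. The submitters' processing notes name FastQC, TopHat2 2.0.11, featureCounts, DESeq2 and mm10. The counting options and annotation are not given in the sources used here.

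Counts were tested with edgeR 4.0.16 (R 4.3.3): its expression filter, TMM scaling, prior count 0.125, quasi-likelihood fit of all 10 libraries without covariates. Standard errors were the size of the log2 fold change divided by the root of F. A gene was called at a Benjamini-Hochberg adjusted p under 0.05 over 13084 tested genes, a fold change over 1.5 and a mean deposited signal over 1 in the controls, the study's criteria for coding genes. CPM are edgeR's counts scaled to the TMM library size. The exact permutation test used log2 CPM with a pseudocount of 1 read and Python 3.11.15 with scipy 1.17.1. P-values measure the spread between these mice, taken as separate animals from their labels. Reads carry no molecular identifiers.

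The members and gene lists were chosen with earlier results of these data known. Genes named were the members, up to 4 called genes per list with the largest change, the most abundant gene of each list, 5 genes most correlated with the members and 4 check genes. Items withheld from this text are not reported here. Transcript lengths came from GENCODE M21 for 22872 of 23337 genes, and a lowess curve (span 0.4) removed the length trend in an alternative. In a fit of simulated counts for this comparison, 173 of 200 genes changed by a fold of 2 among 12971 were recovered, with 7 other calls. Alternatives included DESeq2 1.42.0 and limma 3.58.1.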

Additional observations from a re-analysis of the deposited data

Results flagged for a closer look

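In 12 of 84 sets of values, 1 mouse lay farther from the rest of its group than Dixon's 95% limit allows, where chance gives about 1 in 20 or 4.2 sets. Among the members this was Egr2 in control F2, at 3.38 CPM (25 reads) against 2.04 for the next control. The other 11 concern related genes, all in CPM. Mutant M2 was high for Atf3 (85.5, next 35.5), Mafk (83.1, next 69.2), Ier5 (62.0, next 40.1) and Btg2 (97.7, next 58.3). Maff was low in mutant M1 (14.7, next 20.7) and Mycn in mutant F3 (2.23, next 3.94, 16 reads). Among the controls, Mafk was high in M1 (49.3, next 42.5), Thbs1 in F2 (40.7, next 21.6), Mxd3 in M2 (0.827, next 0.470, 5 reads), Mycn in M1 (1.43, next 0.993, 10 reads) and Glyctk in F2 (2.03, next 1.57, 15 reads).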

How the results depend on the processing

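Of the 29 alternatives, the count of 4 members called higher fell to 2 among the 9983 genes with a mean count of at least 50. Myc and Egr2 lay below that mean count and were not tested there, while Fos and Junb remained called. Of those 9983 genes, 653 were called higher. The count of members fell to 1 in the mice labelled male and 2 in those labelled female. In these fits by labelled sex fewer mice enter, and controls and mutants are of opposite sex by Xist. With 1 mouse left out the count was 3 to 4, 3 without control M1. The replicate number as a block (replicate block) left 3 members in 8 libraries, as did the same 8 libraries without it, an alternative chosen after seeing the data, and the block with the length trend removed left 2. Same-numbered mice did not deviate together (mean r -0.0066 over 4 numbers), so the numbers do not pair the samples, and the labelled sexes of the controls go against Xist. No member was called lower under any alternative. Related genes called higher went from 21 to 11 at a fold change over 2, and all tested genes called higher from 1112 to 539. The log2 fold change of Nr4a1 was -0.0499 in the mice labelled female and ranged from -0.0724 without control M2 to 0.57 without control F2, and the cause was not tested. Over the mice left out in turn, related genes called higher ranged from 20 to 27 and lower from 3 to 4. Myc had 5 to 13 reads per control library, which limits its precision.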
